A study of Mus musculus with 20 samples.

Results

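The miR-221/miR-222 cluster of the mouse gives rise to a pair of closely related microRNAs, miR-221-3p and miR-222-3p. They were chosen as every row of the deposited expression table whose stem is miR-221 or miR-222. This gave 2 of 281 rows, both of them the 3p arm. The 5p arms are not analysed here. The table covers the right ventral hippocampus of 20 wildtype male mice of the C57BL/6JOlaHsd strain, all of them naïve, that is, without a disease model. Cannabidiol (CBD), a plant cannabinoid that is not intoxicating, was injected into the peritoneum of 10 mice at 200 mg/kg/day, split over 2 injections a day, for 5 days. The other 10 mice received vehicle on the same schedule. The sources used here give neither the age of the mice nor what the vehicle was. Each library came from 1 mouse and was listed under 1 of 4 run numbers, which are used below as a possible batch. What that number stands for (sequencing, preparation or other) is unknown from these sources.

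MicroRNAs are short RNAs that guide Argonaute proteins to messenger RNAs, which are recognised mainly through the seed, bases 2 to 8 of the microRNA. The miR-221/miR-222 hairpins are cut from a shared primary transcript, and their 3p arms carry the same seed and so have overlapping targets. In many cell types these targets include Cdkn1b, an inhibitor of the cell cycle, and Kit, a receptor tyrosine kinase. The cluster is best known from endothelium, vascular smooth muscle and tumours, and it is also found in brain. Whole tissue was sequenced, so fewer cells of a type and less RNA per cell cannot be told apart in any of the values below.

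The mature sequences are shown because the shared seed, in capitals, is what joins the pair. They are written 5′ to 3′ and come from RefSeq (GRCm38.p6).
miR-221-3p: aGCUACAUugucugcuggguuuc
miR-222-3p: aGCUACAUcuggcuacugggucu
Each is 23 bases long. The first 8 bases are identical, and 11 of 23 positions hold the same base when the sequences are laid side by side from the 5′ end. Of the mature mouse sequences in RefSeq, 1 other, miR-1928, has the same seed, and it is not among the 281 rows.

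The hairpins are shown to place the sequenced arm, in capitals, inside each precursor.
Mir221: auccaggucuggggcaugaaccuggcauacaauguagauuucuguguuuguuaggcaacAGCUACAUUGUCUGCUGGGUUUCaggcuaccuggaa
Mir222: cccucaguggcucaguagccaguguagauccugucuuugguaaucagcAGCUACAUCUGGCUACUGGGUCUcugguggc
Both lie on the minus strand of the X chromosome, with Mir221 at chrX:19146294-19146388 and Mir222 at chrX:19146893-19146971 (GRCm38). Mir222 is therefore the upstream hairpin, and 504 bases separate it from Mir221. In the GENCODE M21 annotation 0 other genes overlap the cluster on either strand, so neither hairpin is exonic or intronic to an annotated host. The nearest annotated gene on the upstream side is Gm14636, a processed transcript on the same strand whose nearer end, its 3′ end, lies 10009 bases away. The nearest gene on the other side is a pseudogene, Gm5383, at 203065 bases.

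The libraries held 242178 to 1245429 listed reads. Runs 1 to 4 contributed 5, 6, 4 and 5 libraries, of which 3, 3, 2 and 2 were from CBD mice. All 5 neuronal rows looked for in the table were found, among them miR-124-3p and miR-9-5p, and the mean log2 level of this list lay between 13.74 and 14.46. Of 6 rows that mark other organs, the liver row miR-122-5p and 3 muscle rows were not among the 281, and 2 rows of liver, kidney and gut, miR-192-5p and miR-194-5p, were.

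Both members were well measured and stood at nearly the same level. Levels are given as log2 CPM, the logarithm of the read number scaled to a fixed library total. Over all 20 libraries miR-221-3p had a mean log2 level of 11.03 ± 0.43 (SD, n = 20) and miR-222-3p one of 11.09 ± 0.35 (SD, n = 20). They ranked 52 and 50 by mean level among the 281 microRNAs, whose median mean level was 8.58. In linear terms, a median of 0.229% of the listed reads was miR-221-3p, with 0.0864% in the lowest library and 0.447% in the highest. For miR-222-3p the median share was 0.215%, with 0.0915% and 0.369% as the extremes. Read numbers of different microRNAs also reflect how well each sequence is captured in a library, so the near equality of the levels is one of reads.

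The spread between libraries was far larger than counting error. The read number of miR-221-3p was 282 in the lowest library (95% exact Poisson interval 250 to 317) and 4544 in the highest. That of miR-222-3p was 438 (95% interval 398 to 481) and 3478. Counting alone would give a log2 SD of 0.0456 for miR-221-3p, against the 0.43 observed, and 0.0430 for miR-222-3p, against 0.35. These intervals cover counting error only, since the reads carry no molecular identifiers. Among the 281 microRNAs, both were on the steadier side. The SD of miR-221-3p was the 67th lowest and that of miR-222-3p the 29th lowest, and the median SD over all rows was 0.565.

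The comparison of CBD with vehicle asks how the drug affects the level of each microRNA in healthy animals. With CBD, miR-221-3p had a lowest, median and highest log2 level of 10.24, 11.07 and 11.39, against 10.27, 11.11 and 12.01 with vehicle. The ranges overlapped, but the 2 highest libraries, vehicle replicates 1 and 2, stood above all CBD libraries. For miR-222-3p the lowest, median and highest levels were 10.37, 11.00 and 11.56 with CBD, against 10.43, 11.21 and 11.71 with vehicle. Here too the groups overlapped, with the same 2 vehicle libraries above all CBD libraries.

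Neither member passed the test. In the CBD libraries the mean log2 level of miR-221-3p was 10.93 ± 0.38, and in the vehicle libraries it was 11.14 ± 0.47 (SD, n = 10 each), which made a difference of -0.21 (SE 0.20, 95% interval -0.62 to 0.20, unadjusted p = 0.308, limma adjusted p = 0.817). In linear terms this was 0.867 times the vehicle level, with an interval of 0.653 to 1.15. For miR-222-3p the means were 10.99 ± 0.32 and 11.18 ± 0.37 (SD, n = 10 each), a difference of -0.19 (SE 0.17, 95% interval -0.54 to 0.16, unadjusted p = 0.280, limma adjusted p = 0.817). This was 0.877 times the vehicle level, with an interval of 0.686 to 1.12. In 7 of 10 CBD libraries miR-221-3p was below the vehicle mean, and in 8 of 10 miR-222-3p was. For miR-221-3p most vehicle libraries were below that mean too, since the vehicle mean of 11.14 exceeded the vehicle median of 11.11. Such counts were not made for the other rows, so they are a description only. Of all 281 microRNAs 0.0% passed in limma, and the count was also 0 with voom weights but 24 with array weights, neither member among them, and 0 with array weights and the run term. An unadjusted p under 0.05 was found for 22 of 281 (7.83%), of which 15 were lower with CBD (5.34%), and for neither member. The median difference over all 281 was -0.08 on the log2 scale, and against it the members stood at -0.13 and -0.11. A p that misses the threshold does not show equal levels.

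Marker lists of other cell types were set beside this, and 0 of their rows passed in limma. Of all 281 microRNAs 173 were lower with CBD, with the median of -0.08 given above. Of the oligodendrocyte rows 3 of 3 were lower (median log2 difference -0.61), of the endothelial rows 2 of 2 (-0.63), of the smooth muscle and pericyte rows 2 of 2 (-0.28) and of the immune rows 2 of 2 (-0.29), while of the neuronal rows 2 of 5 were (0.03). Of the choroid plexus and ependyma rows 1 of 3 was lower (0.16), and of the red blood cell rows 0 of 1 (0.01). Both arms of the endothelial miR-126a had negative log2 differences, -0.52 for miR-126a-3p (SE 0.21, limma adjusted p = 0.470) and -0.74 for miR-126a-5p (SE 0.27, limma adjusted p = 0.470). The mean level of the endothelial list went from 7.96 to 9.40 with CBD and from 8.46 to 10.11 with vehicle, so the groups overlapped. In the smooth muscle and pericyte list, 2 of 4 rows were measured, with -0.55 for miR-145a-5p (SE 0.27, limma adjusted p = 0.578) and -0.02 for miR-143-3p (SE 0.30, limma adjusted p = 0.989). The part of these cells in the differences of miR-221-3p and miR-222-3p was not tested.

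**Figure D1:**
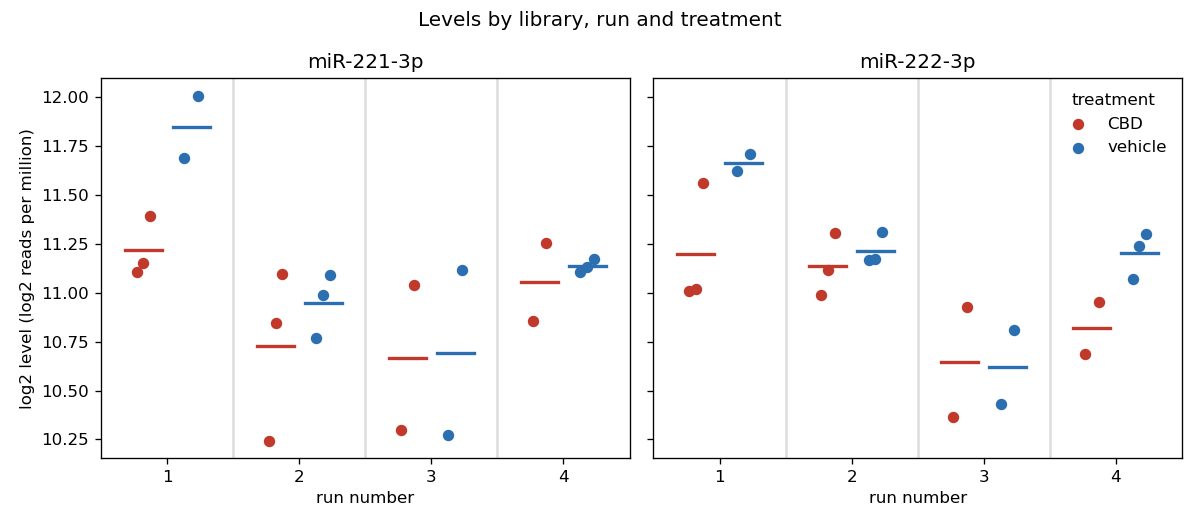
Log2 level (log2 CPM) of miR-221-3p, left, and miR-222-3p, right, in each of the 20 libraries, by run number and treatment. Each point is 1 library and each bar the mean of its 2 or 3 libraries. Both members are highest in the vehicle libraries of run 1, at 11.69 and 12.01 for miR-221-3p and 11.71 and 11.62 for miR-222-3p, and among the lowest in 2 libraries of run 3.

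The observed difference varied in size from run to run, but not detectably in the test of treatment by run given below. In run 1 miR-221-3p stood at 11.10, 11.39 and 11.15 in CBD replicates 1 to 3 and at 11.69 and 12.01 in vehicle replicates 1 and 2. Its partner miR-222-3p stood at 11.02, 11.56 and 11.01, against 11.71 and 11.62. All CBD libraries of run 1 were thus below all its vehicle libraries for both members, a pattern that 26.3% of the 281 microRNAs shared in this run. The differences of the means were -0.63 and -0.47.

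Run 2 showed smaller differences and overlapping groups. There miR-221-3p was 10.84, 11.10 and 10.24 in CBD replicates 4 to 6, and 11.09, 10.77 and 10.99 in vehicle replicates 3 to 5. For miR-222-3p the same libraries gave 10.99, 11.31 and 11.12 with CBD and 11.17, 11.31 and 11.17 with vehicle. CBD replicate 6 was low for miR-221-3p and mid-range for miR-222-3p. Neither member separated the treatments in run 2, where 5.34% of the microRNAs had all CBD libraries below all vehicle libraries. The differences in run 2 were -0.22 for miR-221-3p and -0.08 for miR-222-3p.

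In run 3 each treatment had 1 high and 1 low library. The level of miR-221-3p was 11.04 and 10.30 in CBD replicates 7 and 8 and 11.12 and 10.27 in vehicle replicates 6 and 7. The level of miR-222-3p was 10.93 and 10.37, against 10.81 and 10.43. CBD replicate 8 and vehicle replicate 7 were low for both members. The treatments overlapped for both, and in 14.6% of the microRNAs all CBD libraries of run 3 were below all its vehicle libraries. Between treatments the differences were -0.03 for miR-221-3p and 0.03 for miR-222-3p.

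Run 4 split the members. The level of miR-221-3p was 11.26 and 10.86 in CBD replicates 9 and 10, on either side of the 11.10, 11.18 and 11.13 of vehicle replicates 8 to 10. For miR-222-3p the CBD libraries, at 10.95 and 10.68, were both below the vehicle libraries, at 11.07, 11.24 and 11.30. Of the 281 microRNAs 21.7% had all CBD libraries of run 4 below all its vehicle libraries. The differences were -0.08 for miR-221-3p and -0.38 for miR-222-3p.

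The sign was negative in 4 of 4 runs for miR-221-3p, as in 14.2% of the 281 microRNAs, and in 3 of 4 for miR-222-3p, as in 27.8%. The difference did not itself differ detectably between runs in the limma test of treatment by run (adjusted p = 0.905 and 0.903). With run as a further term the log2 difference was -0.25 for miR-221-3p (95% interval -0.57 to 0.08, limma adjusted p = 0.403) and -0.23 for miR-222-3p (95% interval -0.50 to 0.04, limma adjusted p = 0.394). An exact two-sided permutation of the treatment labels within runs, over all 12000 relabellings, gave unadjusted p = 0.107 for miR-221-3p and p = 0.0445 for miR-222-3p. That test was added after the data were seen and is not adjusted over the table.

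**Figure D2:**
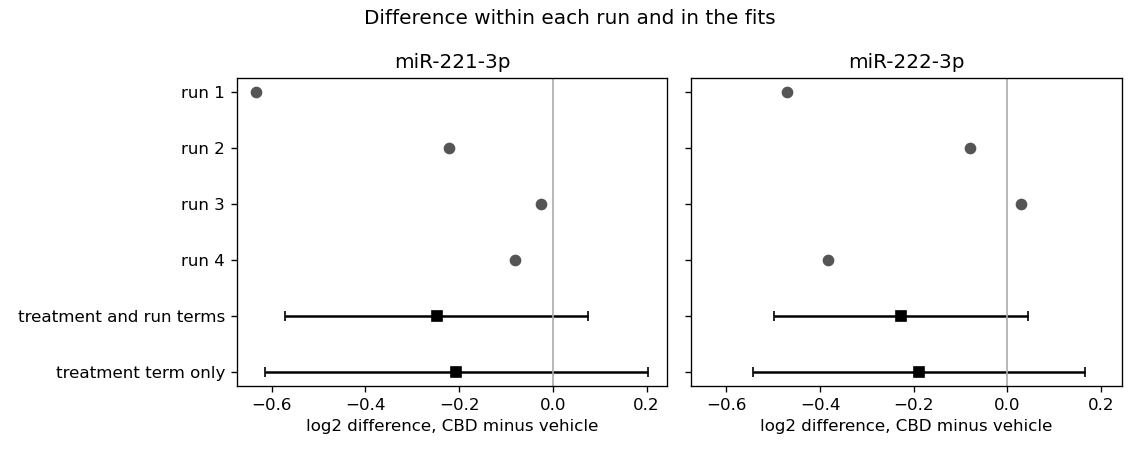
Log2 difference, CBD minus vehicle, of miR-221-3p, left, and miR-222-3p, right. Circles are differences of means within 1 run, and squares with bars are limma estimates with 95% intervals. All 4 intervals reach across 0, and the largest within-run differences are the -0.63 and -0.47 of run 1.

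In the authors' deposited table the pair falls on either side of a line drawn at an unadjusted p of 0.05. The authors' deposited table lists miR-222-3p with a log2 fold change of -0.23 (unadjusted p = 0.0497, adjusted p = 0.211). In the authors' deposited table miR-221-3p follows with -0.26 (unadjusted p = 0.0617, adjusted p = 0.234). In the authors' deposited table miR-222-3p has rank 66 by p, and it is the row with the highest p in their short table, which holds 66 of 281 rows (23.5%). With rank 74, miR-221-3p is not in that short table. The authors' deposited table gives 0 rows an adjusted p under 0.05. The authors' deposited table gives a mean level of 11.12 for miR-222-3p and 11.09 for miR-221-3p, where the 20 columns average 11.09 and 11.03, and the fit behind it is not described in the sources used here. Its fold changes and mean levels thus differ from those of the main fit here. Whether its libraries, its input values or its settings differ is unknown.

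Because a ratio inside 1 library does not depend on how libraries are scaled, it was used to ask whether treatment moved the members apart. The log2 ratio of miR-222-3p over miR-221-3p ranged from -0.30 to 0.87 with CBD and from -0.39 to 0.54 with vehicle, so the groups overlapped. The mean ratio of the CBD libraries was 0.07 ± 0.33 and that of the vehicle libraries 0.05 ± 0.26 (SD, n = 10 each), a difference of 0.02 (95% interval from the pooled SD -0.26 to 0.30, permutation test with 100000 resamples, p = 0.904). The difference within runs 1 to 4 was 0.16, 0.14, 0.05 and -0.30. The exact permutation within runs gave p = 0.859. No difference between the members in their response to CBD was thus detectable.

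Levels did differ between runs. The limma F test of run, beside treatment, gave adjusted p = 0.0253 for miR-221-3p and adjusted p = 0.0192 for miR-222-3p, and 48.0% of the 281 microRNAs passed it. The run means spanned 0.789 and 0.750 on the log2 scale, below the median range of 0.875 over all rows. From high to low, miR-221-3p had run means of 11.47 in run 1, 11.10 in run 4, 10.84 in run 2 and 10.68 in run 3. The libraries of neighbouring runs in this order overlapped each time. For miR-222-3p the order was run 1 at 11.38, run 2 at 11.18, run 4 at 11.05 and run 3 at 10.63, and here too neighbours overlapped.

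Runs that did not overlap were few. For miR-221-3p these were runs 1 and 2, 0.63 apart in the mean, which did not overlap for 6.05% of the microRNAs. For miR-222-3p these were runs 1 and 3, 0.75 apart, and runs 2 and 3, 0.54 apart, which did not overlap for 8.19% and 11.7% of the microRNAs. Both members overlapped between runs 1 and 4, runs 2 and 4 and runs 3 and 4, pairs of runs that did not overlap for 8.9%, 17.4% and 2.49% of the microRNAs. Run 3 was the lowest for both members. Without vehicle replicate 1 or vehicle replicate 2 the test of run gave adjusted p = 0.0626 and 0.0871 for miR-221-3p, and without vehicle replicate 7 it gave 0.0569 for miR-222-3p (limma).

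The clearest difference between the members lay in run 2. In all 6 libraries of run 2 miR-222-3p was above miR-221-3p, with log2 ratios of 0.14, 0.21 and 0.87 in CBD replicates 4 to 6 and 0.08, 0.54 and 0.17 in vehicle replicates 3 to 5. In runs 1, 3 and 4 it was above in 2 of 5, 2 of 4 and 2 of 5 libraries. The mean log2 ratio was 0.34 ± 0.31 in run 2 (SD, n = 6, permutation test below), against -0.09 ± 0.20, -0.05 ± 0.21 and -0.05 ± 0.19 in runs 1, 3 and 4. Runs held 42.8% of the squared deviations of the ratio (permutation test of the run labels with 100000 resamples, p = 0.0216, chosen after the values were seen). Without CBD replicate 6 this p was 0.0707 and without vehicle replicate 4 it was 0.0537, so the result rests on these libraries. Ratios of other microRNAs were not tested by run, and the levels of 48.0% of all rows differed between runs. Counting error would give the ratio a log2 SD of 0.0626, against the 0.289 observed over the 20 libraries.

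**Figure D3:**
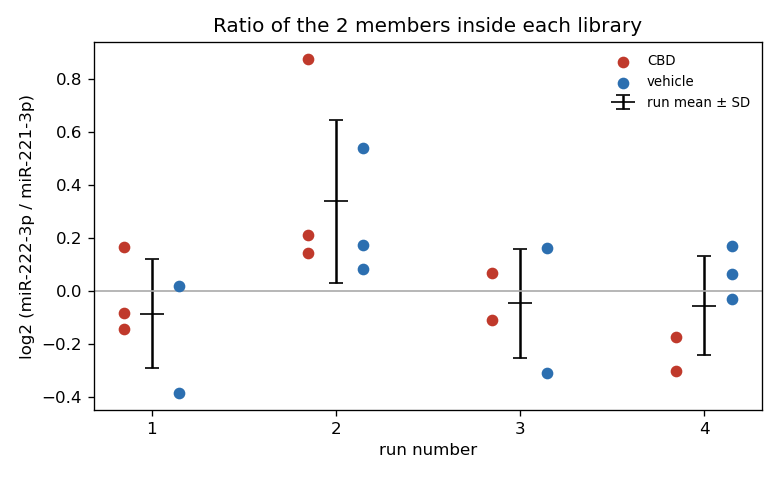
Log2 ratio of miR-222-3p over miR-221-3p inside each library, by run number, with points coloured by treatment and the run mean ± SD in black. All 6 libraries of run 2 lie above 0, and the highest point is CBD replicate 6 at 0.87.

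The members rose and fell together between libraries. Over the 20 libraries their log2 levels had Pearson r = 0.744 (permutation test, p = 0.00031) and Spearman rho = 0.520 (permutation test, p = 0.0211), the only pair of members and so a family of 1 relation. After removal of the run means r was 0.708 (p = 0.0044 with libraries permuted within runs) and rho was 0.663 (p = 0.00836). With the treatment mean removed as well r was 0.638 (permutation within runs, p = 0.0150). The 2 libraries farthest from the median of miR-221-3p were vehicle replicate 2 and CBD replicate 6, and without them r was 0.819 (permutation test, p = 3.0e-05). The Spearman coefficient was 0.513 without them (permutation test, p = 0.0313).

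The relation was uneven over subsets. Within the 10 vehicle libraries r was 0.833 (permutation test, p = 0.00569) and rho was 0.612 (p = 0.0666). Within the 10 CBD libraries r was 0.576 (permutation test, p = 0.0832) and rho was 0.394 (p = 0.264). Whether these differ was not tested. In run 2, the only run with 6 libraries, r was 0.294 (permutation test, p = 0.564), and the other runs held too few libraries for a value. The scaling of a library is shared by both members. With each library centred on its median microRNA r was 0.749 (permutation test, p = 2.0e-04), or 0.873 when reads were divided by the listed library size (permutation test, p = 1.0e-05, the smallest that the resamples can give).

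**Figure D4:**
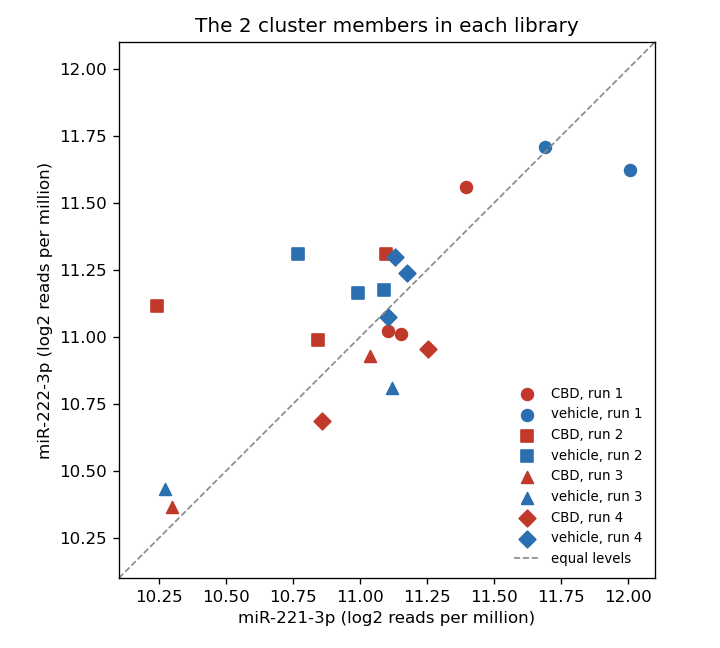
Log2 level of miR-222-3p against that of miR-221-3p in each of the 20 libraries, with colour for treatment and marker shape for run. Most points lie along the dashed line of equal levels (r = 0.744), and the squares of run 2 lie above it.

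The pair was compared with other microRNA pairs that come from 1 short genomic cluster. Of 17 such pairs listed by name, 12 had both arms in the table. With run means removed, their r had a median of 0.470 and went from -0.636 for miR-181c-5p and miR-181d-5p to 0.835 for miR-30b-5p and miR-30d-5p. The 0.708 of the miR-221/miR-222 pair was below that of 2 of these pairs and above that of 10. For the vascular pair of miR-143-3p and miR-145a-5p r was -0.153. For miR-132-3p with miR-212-3p, whose cluster responds to neuronal activity, it was 0.439. The log2 ratio of miR-222-3p over miR-221-3p, with an SD of 0.289, was also steadier than that of each of the 12 pairs, whose median SD was 0.627. The SD of a ratio also depends on the spread of each microRNA in it, and both members were on the steadier side of all rows. The r and SD values of these pairs are descriptions over 20 libraries that share their scaling. Among all 39340 pairs of rows in the table the median run-centred r was 0.00674, and 2.56% of the other pairs had an r at least as high as the miR-221/miR-222 pair.

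**Figure D5:**
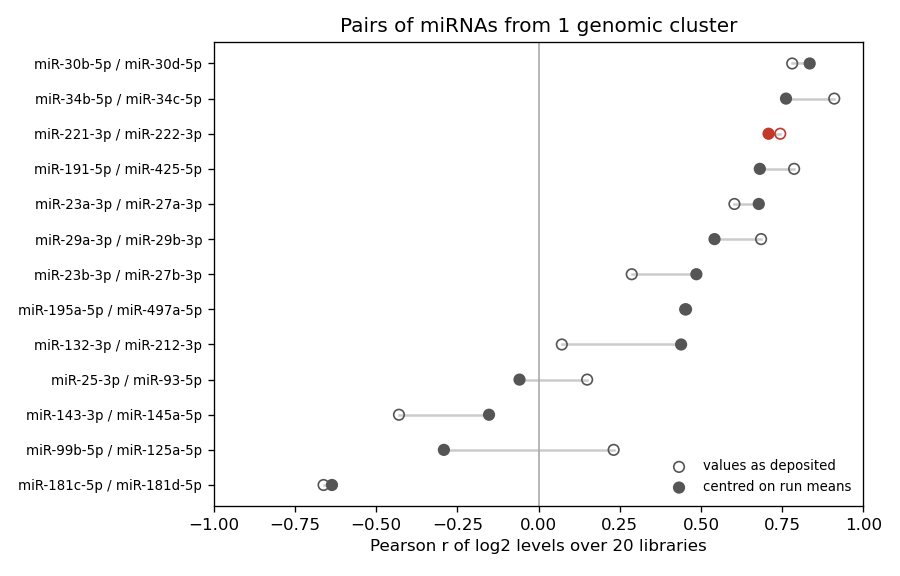
Pearson r of log2 levels over the 20 libraries for 13 pairs of microRNAs from 1 genomic cluster, with the miR-221/miR-222 pair in red. Open circles use the values as deposited and filled circles the values centred on run means. The red filled circle, at 0.708, is the third highest, and pairs range from -0.636 to 0.835.

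Each member had other microRNAs whose pattern was as close as that of its partner. By run-centred r, miR-222-3p was the sixth closest to miR-221-3p, and miR-221-3p was the third closest to miR-222-3p. The 5 closest to miR-221-3p were miR-24-3p (r = 0.806), miR-124-5p (0.792), miR-700-5p (0.739), miR-342-3p (0.730) and miR-434-5p (0.714). Of these, miR-124-5p is the minor arm of the neuronal miR-124, and miR-434-5p comes from the imprinted Dlk1-Meg3 region. Besides its partner, the closest to miR-222-3p were miR-342-3p (0.825), miR-434-5p (0.768), miR-191-5p (0.662) and miR-666-5p (0.647), the last from the same imprinted region. On values as deposited the r of miR-221-3p was 0.809, 0.881, 0.659, 0.423 and 0.783 with its 5 in the order given, and that of miR-222-3p was 0.795, 0.660, 0.831 and 0.543 with its 4. Over all other rows the median run-centred r was 0.0775 for miR-221-3p and 0.0768 for miR-222-3p.

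Vessel microRNAs were examined because the cluster is known from endothelium and smooth muscle. The endothelial list held the arms of miR-126a, whose host gene Egfl7 is expressed in endothelium, and the smooth muscle and pericyte list held miR-143-3p and miR-145a-5p. Run-centred, miR-221-3p had r = 0.496 with miR-126a-3p, 0.344 with miR-126a-5p, 0.549 with miR-145a-5p and 0.0210 with miR-143-3p. For miR-222-3p these were 0.374, 0.311, 0.634 and -0.0967. On values as deposited, in the same order, r was 0.663, 0.320, 0.577 and -0.449 for miR-221-3p and 0.431, 0.218, 0.720 and -0.646 for miR-222-3p, so the negative values with miR-143-3p were near 0 once run means were removed. On either scale r was higher with miR-145a-5p than with its cluster neighbour miR-143-3p for both members, a description over 20 libraries with no test of the difference.

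Of 18 relations of the members to library measures and marker lists, 0 passed after adjustment over the 18. That of miR-221-3p to the mean level of the endothelial list had r = 0.483 (permutation test, p = 0.0296, adjusted p = 0.266) and rho = 0.454 (p = 0.0458, adjusted p = 0.275). Its r was 0.506 without the 2 libraries farthest from the median of the list, 0.410 with run means removed (permutation within runs, p = 0.149) and 0.171 within run 2. That of miR-222-3p to the same list had r = 0.320 (permutation test, p = 0.168, adjusted p = 0.433) and rho = 0.326 (p = 0.160), and its r was 0.314 without the 2 farthest libraries, 0.342 with run means removed and 0.735 within run 2. With the smooth muscle and pericyte list r was 0.0982 for miR-221-3p and 0.0401 for miR-222-3p on values as deposited, and 0.505 (permutation within runs, p = 0.0523, adjusted p = 0.471) and 0.510 (p = 0.0149, adjusted p = 0.269) with run means removed, where rho was 0.468 for each. Within run 2 these r were 0.293 and 0.841.

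The largest relation of miR-222-3p was to the choroid plexus and ependyma list, with r = -0.570 (permutation test, p = 0.00852, adjusted p = 0.153) and rho = -0.516 (p = 0.0205, adjusted p = 0.275). It was -0.434 without the 2 farthest libraries, and with run means removed rho was -0.0195, so it did not hold within runs. For library size on the log2 scale r was 0.193 with miR-221-3p and -0.0432 with miR-222-3p (permutation test, p = 0.417 and 0.858), and rho was 0.215 and -0.00602. Without the 2 libraries of farthest size r was 0.411 and 0.177, and with run means removed it was -0.0604 and -0.195. For the number of microRNAs r was 0.400 and 0.124 (permutation test, p = 0.0817 and 0.604). These were 0.250 and 0.209 without the 2 farthest libraries, and 0.0755 and -0.153 with run means removed. For the neuronal list r was -0.279 and -0.384, and for the oligodendrocyte list 0.00322 and -0.354. Of 6 rows looked for as marks of microglia and other immune cells 2 were in the table, and of 5 for red blood cells 1 was. Their mean levels had r = -0.350 and -0.174 with miR-221-3p, and 0.174 and 0.150 with miR-222-3p. The lowest p among these 4 relations was that of rho = -0.472 between miR-221-3p and the immune list (permutation test, p = 0.0381, adjusted p = 0.275). With run means removed that rho was -0.152 and r was -0.0519 (permutation within runs, p = 0.784), so it did not hold within runs. The defining immune rows miR-142a-3p, miR-223-3p and miR-155-5p and the red blood cell row miR-451a were not among the 281.

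The cluster lies on the X chromosome, and other microRNAs of that chromosome were set beside the pair. Of 41 further X-chromosome stems looked for by name, 12 rows were in the table, of which RefSeq places 10 on the X chromosome and 2 were unmatched. With CBD 3 of them were higher and 9 lower, 0 passed in either direction in limma, and their median log2 difference was -0.09, beside -0.08 over all 281. Their median run-centred r was 0.0324 with miR-221-3p and 0.141 with miR-222-3p. The values closest to miR-221-3p were those of miR-384-3p (0.576) and miR-361-5p (0.406), and the most opposed that of miR-676-3p (-0.620).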

How the data were processed

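The authors deposited log2 expression values for 281 microRNAs for the 20 libraries, and column names were matched to sample titles by the number of the mouse. Per the submitters' processing notes mm10, edgeR and limma were used, while aligner and counter are not given in the sources used. Every value had the form log2 CPM, with 0.5 added to the read number n and an effective library as the total, and n was whole, which held for 100% of values within a relative tolerance of 1e-06. The effective library was 0.693 to 1.17 times the listed one. The authors' deposited comparison table holds log2 fold changes, p-values, t and log-odds scores, and a fold (ratio) column that was not used. The authors' short table held the rows with an unadjusted p under 0.05.

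The deposited values were fitted with limma 3.58.1 in R 4.3.3 on treatment alone, with a variance trend. The fit was tested on simulated data without run effects or related rows. Recovery was required only for an effect far larger than the members' differences. P-values are two-sided and adjusted by Benjamini and Hochberg over 281 rows, with a threshold of 0.05. A filter (log2 above 0 in 10 libraries) would remove 0 rows. Correlations and ratios were tested with 100000 permutations (numpy 2.4.6) and within-run labels with all 12000 relabellings. Replicates were numbered in accession order, and libraries of a group come from separate mice. The members, lists and named microRNAs (the pair, the 5 closest rows to each, 17 cluster pairs, X-chromosome rows and marker lists) were chosen with earlier results of these data known. Alternatives were other scalings, pseudocounts, filters, weights, run terms and left-out libraries.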

Additional observations from a re-analysis of the deposited data

Results flagged for a closer look

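In CBD replicate 6 the log2 ratio of miR-222-3p over miR-221-3p was 0.87, the highest of the 10 CBD libraries, and its gap to the next library was 0.565 of the group's whole range, above the critical value of 0.466 for 10 samples. The library held 282 reads of miR-221-3p and 517 of miR-222-3p. It had 326559 listed reads, 608 listed microRNAs (the fewest of the 20 libraries) and a scaling factor of 0.714, and their part in the ratio was not tested. It was 1 of 18 groups looked at in this way, and chance marks about 1 in 20.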

How the results depend on the processing

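The log2 difference between CBD and vehicle stayed negative under all 58 alternatives, and its adjusted p stayed short of the threshold. It lay between -0.33 and -0.08 for miR-221-3p and between -0.29 and -0.11 for miR-222-3p. The unadjusted 95% interval lay below 0 in a few settings with the run term. For both members this was without vehicle replicate 7 or CBD replicate 7. For miR-222-3p it was also with array weights (-0.47 to -0.01). Among the 58 alternatives, the filter settings removed no rows and so repeated the main fit. Leaving out the variance trend could not change the difference. With each of the 20 libraries left out in turn it was -0.30 to -0.11 and -0.27 to -0.12. The -0.11 of miR-221-3p was without vehicle replicate 2, and the -0.08 was with array weights. Centred on the median microRNA the differences were -0.13 and -0.11. The number of microRNAs past the threshold was 24 with array weights (0 with array weights and the run term), and 0 to 1 when a library was left out, the 1 arising with the run term without vehicle replicate 7 or CBD replicate 7. The correlation of the pair was weaker within run 2 (r = 0.294) and within CBD (r = 0.576), and 0.686 to 0.834 with a library left out. The Spearman coefficient was then 0.440 to 0.614, with p = 0.0602 at most, the p being above 0.05 without CBD replicate 2, vehicle replicate 1 or vehicle replicate 2. The range of run means was 0.65 to 0.93 for miR-221-3p and 0.66 to 0.85 for miR-222-3p with a library left out, and that of the ratio 0.32 to 0.49. The CBD difference of the ratio ran from -0.0730 (without CBD replicate 6) to 0.0714 with a library left out, and was -0.0315 without vehicle replicate 2 and -0.0229 without vehicle replicate 6. The causes were not tested.

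No paired analysis was possible because the replicate numbers were given in accession order and mark no shared animal, litter or day. The planned edgeR and DESeq2 fits were not run, since the deposited values are on the log2 scale, and voom weights on the recovered reads stood in for them, chosen after seeing the data, as were the combined alternatives with the run term. Each library held at least 282 reads of each member, so counting error was small beside the spread of the levels. Beyond the relations to library size and number of microRNAs given above, the part of depth was not tested.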

Other observations

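Of the microRNAs whose pattern was closest to the pair 0 passed for CBD after adjustment in limma. Each had a negative log2 difference, as did 173 of all 281 microRNAs, whose median was -0.08. It was -0.62 for miR-666-5p (SE 0.25), -0.53 for miR-434-5p (SE 0.22) and -0.42 for miR-24-3p (SE 0.22). It was -0.24 for miR-124-5p, and nearer to that median for miR-191-5p (-0.12), miR-342-3p (-0.10) and miR-700-5p (-0.07). They were picked by their likeness to the pair in the same libraries, so this is a description with no test of the set.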
